A study of Mus musculus with 2 samples.

Results

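With earlier results of these data known, 10 of the 43346 genes listed in both libraries were chosen by symbol. These 10 imprinted genes of fetal growth are described here. They are Igf2, Dlk1, Mest, Peg3 and Ndn, which mice express from the copy inherited from the father, and H19, Cdkn1c, Meg3, Rian and Grb10, expressed mainly from the mother's copy. Their rows were found by gene identifier, and 82 of the 103639 listed transcripts belong to them. RNA came from skeletal muscle of B6NCrl mice, a C57BL/6N line, taken on the day of birth (postnatal day 0). Each of the 2 libraries was made by a SmartSeq protocol, which copies and amplifies full-length RNA, from 13 pg of total RNA above a size of 200, equal to the content of about 1 cell but taken from bulk tissue of 1 pup. Both libraries form 1 untreated group, so there was no contrast between conditions and no p-value is given. They have separate tissue records and the same donor entry, and sex was not collected. The spread between replicates 1 and 2 may therefore be partly technical.

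Imprinted genes are read from 1 parental copy because DNA methylation set in the egg or the sperm silences or protects the other. Many lie in clusters where a maternally expressed noncoding RNA neighbours a paternally expressed growth gene, and in mice paternally expressed genes tend to promote fetal growth while several maternally expressed ones restrain it. Reads were not assigned to an allele here, so paternal and maternal are background knowledge about each gene and were not measured. Levels are in TPM, a share of all transcripts adjusted for length, and errors are the SD over n = 2. Here a ratio exceeds the spread if both libraries give it the same sign and its mean is over 2 SD, which describes 2 libraries and is not a test.

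Windows of 250 bases before an annotated transcript start are shown for 4 members, with an upstream and a downstream start for Igf2, because the transcript results turn on which start the reads were assigned to. They come from RefSeq on GRCm38.p6 and run from 5′ to 3′ on the gene's strand. Capitals mark TGCCGC, the core sequence that the imprint-protecting protein ZFP57 binds when methylated, and the TATA-type hexamer TATAAA, each searched on both strands. Mest is at chr6:30737800-30738049 on the plus strand, Meg3 at chr12:109540746-109540995 on the plus strand, Grb10 at chr11:12037421-12037670 on the minus strand and Igf2 at chr7:142666817-142667066 (upstream) and chr7:142657497-142657746 (downstream) on the minus strand.
Mest: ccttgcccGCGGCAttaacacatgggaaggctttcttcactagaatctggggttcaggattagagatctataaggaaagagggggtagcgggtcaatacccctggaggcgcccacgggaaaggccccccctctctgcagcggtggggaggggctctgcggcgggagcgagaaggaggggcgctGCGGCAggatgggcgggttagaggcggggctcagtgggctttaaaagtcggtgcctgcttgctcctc
Meg3: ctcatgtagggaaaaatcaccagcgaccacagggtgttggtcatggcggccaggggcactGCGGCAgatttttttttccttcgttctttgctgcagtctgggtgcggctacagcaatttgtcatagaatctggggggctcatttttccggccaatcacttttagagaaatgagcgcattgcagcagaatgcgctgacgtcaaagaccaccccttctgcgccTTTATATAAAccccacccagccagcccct
Grb10: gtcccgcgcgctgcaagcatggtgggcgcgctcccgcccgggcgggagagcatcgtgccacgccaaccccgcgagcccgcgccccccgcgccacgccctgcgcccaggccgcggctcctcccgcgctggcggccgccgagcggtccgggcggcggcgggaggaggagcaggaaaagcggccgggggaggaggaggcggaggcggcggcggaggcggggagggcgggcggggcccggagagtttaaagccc
Igf2 upstream: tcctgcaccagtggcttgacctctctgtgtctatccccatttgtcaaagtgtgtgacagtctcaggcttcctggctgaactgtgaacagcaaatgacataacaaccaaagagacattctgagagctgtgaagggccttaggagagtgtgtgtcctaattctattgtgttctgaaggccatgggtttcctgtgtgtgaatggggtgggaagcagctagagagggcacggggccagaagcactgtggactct
Igf2 downstream: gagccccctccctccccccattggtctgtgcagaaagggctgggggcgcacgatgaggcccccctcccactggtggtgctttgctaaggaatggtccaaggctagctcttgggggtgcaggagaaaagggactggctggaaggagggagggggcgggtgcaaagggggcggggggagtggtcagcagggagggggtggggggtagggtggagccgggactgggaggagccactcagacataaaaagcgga

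TGCCGC occurred 2 times in the Mest window and 1 time in the Meg3 window, while 8.68% of 32851 RefSeq windows of this length held it. The Meg3 window also held TATAAA on each strand, as 2 overlapping matches, and 12.4% of windows held at least 1 match. Neither hexamer was in the Grb10 window or the Igf2 windows. Grb10 had 40 CpG dinucleotides, a number reached by 1.31% of windows, against 14 for Mest, 10 for Meg3 and, for Igf2, 1 upstream and 6 downstream, with a median of 6 over all windows. These members have other RefSeq windows that are not shown. Between the Igf2 windows shown lie others with 10 and 22 CpG, so Igf2 starts are not all poor in CpG. The others had 7 and 14 for Mest, 0 for Meg3 and 8 for Grb10. A match describes letters and shows no binding.

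H19 and Mest also hold the hairpins of microRNAs, short RNAs that pair with target messages through bases 2 to 8, the seed. The mature RNAs cut from them are shown with the seed in capitals, because both host genes were read while the hairpins' own rows held no counts. Mir335 lies in an intron of the leading Mest transcript, whereas Mir675 lies in exons of 2 H19 transcripts. For Mir675 an empty row therefore does not show that its bases were unread. Mir675 lies at chr7:142577064-142577147 on the minus strand and Mir335 at chr6:30741299-30741396 on the plus strand, on GRCm38.p6.
miR-675-5p: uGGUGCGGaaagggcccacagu
miR-675-3p: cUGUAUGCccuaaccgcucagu
miR-335-5p: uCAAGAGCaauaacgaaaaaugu
miR-335-3p: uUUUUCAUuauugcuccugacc

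No seed is shared among these 4 RNAs. Both precursor rows held 0 expected counts in each library, where counting error alone allows up to 3 counts. All microRNA hairpins together held 24.97 counts in replicate 1 and 40.7 in replicate 2, in libraries made from RNA above a size of 200.

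All 10 members were detected in both libraries, as were 10% of all genes, where detection asked for 1 TPM and 5 expected counts or more. Their summed share of TPM was 1.13% in replicate 1 and 0.980% in replicate 2, a mean of 1.06 ± 0.109%. Every member stood among the highest 24.95% of the 4356 genes detected in both, whose median level was 46.2 TPM. By mean level H19 held rank 33, Meg3 rank 44 and Igf2 rank 53, and Peg3 was the lowest at rank 1087. Read counts were high throughout, from 7407 for Dlk1 in replicate 1 to 161681 for H19 in replicate 2. Exact Poisson 95% intervals spanned 0.488% to 2.28% of a count on either side, and they cover counting error only, since no molecular identifiers were used.

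Replicate 1 totalled 32103374 expected counts and replicate 2 totalled 38977618, with 6350 and 6949 genes detected and spike-in RNAs, added in known amounts, at 9.44% and 4.54% of TPM. All 5 muscle fibre markers were detected in both, with Acta1 highest at 64537 and 61754 TPM, and 0 of 4 cartilage and bone, 0 of 3 epidermal and 0 of 3 neuronal markers were. Of other cell types that muscle tissue holds, all 5 fibroblast markers were detected in both, with a summed level of 6606 TPM in replicate 1 and 4104 TPM in replicate 2. So were 3 of 4 adipocyte markers, and the 4 summed to 2315 and 859 TPM. The adipocyte gap was largest in Cfd, at 1071 and 39.3 TPM, and Adipoq had 368 and 83.3 TPM. Fabp4 was closer at 876 and 717 TPM, and Plin1 went the other way at 0.19 and 19.3 TPM. Endothelial markers summed to 494 and 253 TPM, a gap carried by Pecam1 at 182 and 0.06 TPM, while Esam and Tie1 were higher in replicate 2. Macrophage markers summed to 626 and 227 TPM, with Csf1r detected in neither library, and erythroid markers to 3292 and 3629 TPM. Of 4 myogenic and satellite cell markers, 2 were detected in both, Myf5 in replicate 1 only and Pax7 in neither. Several members are expressed in connective tissue as well as in fibres. The part of these cell types in the results was not tested, and in bulk RNA fewer cells of a type and less RNA per cell cannot be told apart.

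The maternally expressed members held more RNA than the paternally expressed ones as a sum, and this came from the noncoding genes. Paternally expressed members summed to 3865 TPM in replicate 1 and 3677 TPM in replicate 2, and maternally expressed members to 7482 and 6125 TPM. The paternal sum was lower than the maternal sum in both libraries, with a log2 ratio of −0.95 in replicate 1 and −0.74 in replicate 2, a mean of −0.84 ± 0.15 that exceeded the spread. H19 and Meg3 held 84.1 ± 3.86% of the maternal sum. Among protein-coding genes the order was the other way, since the 5 paternally expressed members exceeded the sum of Cdkn1c and Grb10 with a log2 ratio of 3.13 ± 0.27. By the typical gene the sides did not separate: the median log2(TPM + 1) of the 5 paternal minus that of the 5 maternal members was 0.08 in replicate 1 and −0.08 in replicate 2. Without the highest member of each side, Igf2 and H19, the log2 ratio of the sums was −1.38 in replicate 1 and −0.37 in replicate 2, and its mean of −0.88 ± 0.72 no longer exceeded the spread.

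**Figure D1:**
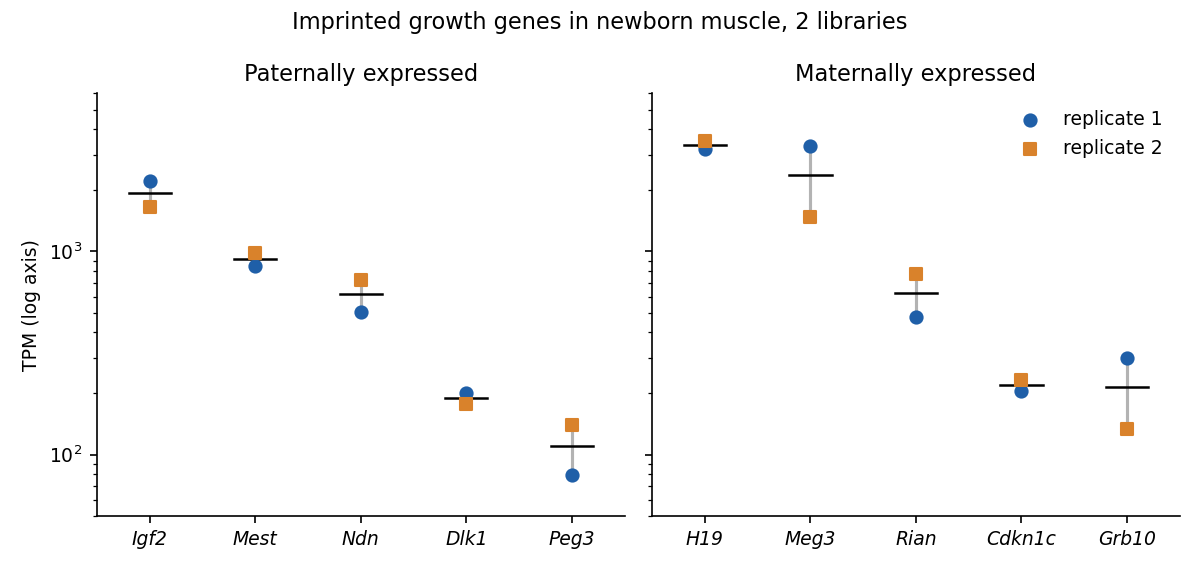
TPM of each member on a log axis, paternally expressed genes at left and maternally expressed genes at right, with circles for replicate 1, squares for replicate 2, a black bar at the mean and a grey line joining both libraries. H19, Meg3 and Igf2 stand highest, and Meg3 and Grb10 have the widest gaps between libraries.

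Ordered by mean TPM, the members formed 3 tiers, which hold on this length-adjusted scale only. By expected counts Igf2 had 75100 and 50565 in replicates 1 and 2, and Mest had 49440 and 74923. Peg3 had 15791 and 37631 counts, and Ndn had 19186 and 35309. By counts, Mest thus passed Igf2 and Peg3 passed Ndn in replicate 2. The top tier held H19, Meg3 and Igf2, the middle tier Mest, Rian and Ndn, and the lowest Cdkn1c, Grb10, Dlk1 and Peg3. The step down from Igf2 to Mest exceeded the spread, with a log2 difference of 1.07 ± 0.45, and so did the step from Ndn to Cdkn1c at 1.46 ± 0.24. The other 7 steps between neighbours in this order did not exceed 2 SD. In 5 of them the genes exchanged places between the libraries: H19 and Meg3, Meg3 and Igf2, Rian and Ndn, Cdkn1c and Grb10, and Grb10 and Dlk1.

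Igf2 encodes insulin-like growth factor 2, the main growth factor of the fetus, and H19 is a noncoding RNA that shares its enhancers. Igf2 (chromosome 7, 142650766 to 142666816, minus strand, GRCm38) had 2229 TPM in replicate 1 and 1651 TPM in replicate 2. H19 (142575529 to 142578143, minus strand, 72.6 kb from Igf2) had 3209 TPM in replicate 1 and 3503 TPM in replicate 2. H19 was thus higher than Igf2 in each library and the levels of the genes did not overlap. The log2 ratio of Igf2 to H19 was −0.53 in replicate 1 and −1.08 in replicate 2, a mean of −0.81 ± 0.40, only just past 2 SD. From expected counts, with no length adjustment, it was −1.28.

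In the chromosome 12 domain the paternally expressed gene was the lowest member. Dlk1 (109452823 to 109463336, plus strand) encodes a membrane protein that restrains adipocyte differentiation and takes part in muscle growth. It had 202 TPM in replicate 1 and 177 TPM in replicate 2. Meg3, a maternally expressed noncoding RNA that begins 77.7 kb downstream (109541001 to 109571726), had 3291 TPM in replicate 1 and 1483 TPM in replicate 2, so its level was more than 2-fold apart between libraries. Rian, which follows 32.2 kb after Meg3 on the same strand and hosts small nucleolar RNAs (109603940 to 109661716), had 478 TPM in replicate 1 and 771 TPM in replicate 2.

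Dlk1 stood below both noncoding neighbours in each library. Its log2 ratio to Meg3 was −4.02 in replicate 1 and −3.06 in replicate 2, a mean of −3.54 ± 0.68, and Meg3 was 16.3-fold higher in replicate 1 and 8.40-fold higher in replicate 2. Its log2 ratio to Rian was −1.24 in replicate 1 and −2.12 in replicate 2, a mean of −1.68 ± 0.62. Both pairs exceeded the spread. Rian was below Meg3 in each library, but the log2 ratio of −2.78 in replicate 1 and −0.94 in replicate 2 gave −1.86 ± 1.30 and did not exceed it. Meg3 was higher in replicate 1 and Rian in replicate 2, so these noncoding RNAs of 1 strand did not move together between libraries.

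**Figure D2:**
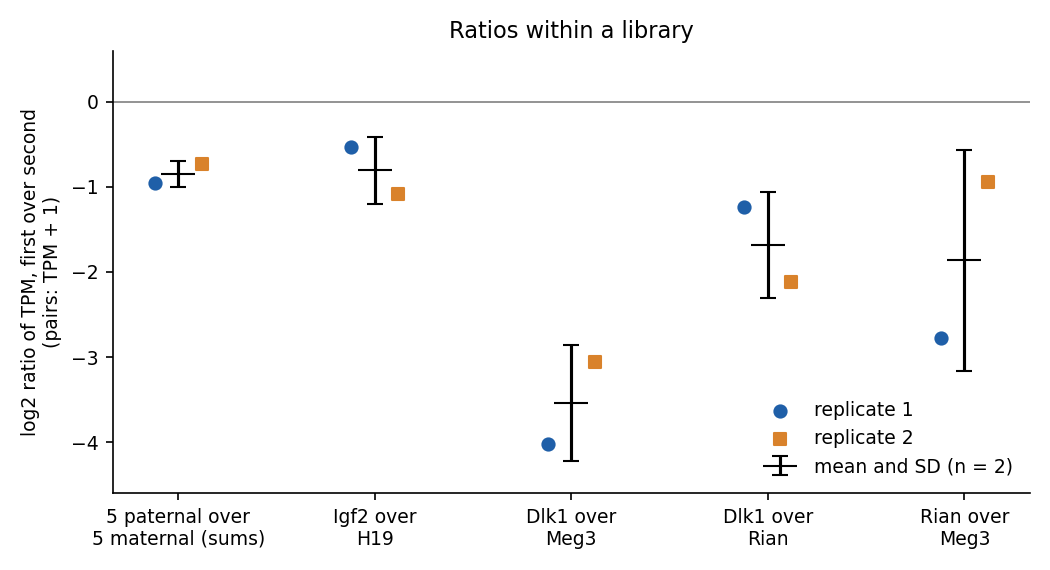
Log2 ratios of TPM within each library for the sums of the 5 paternally over the 5 maternally expressed members and for 4 pairs of neighbours, with circles for replicate 1, squares for replicate 2 and bars for mean and SD over n = 2. All points lie below 0, and Dlk1 over Meg3 is farthest from 0 at −3.54.

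The remaining members lie in domains of their own. Mest (chromosome 6, 30723547 to 30748465), a mesoderm-specific hydrolase-like protein, had 849 TPM in replicate 1 and 981 TPM in replicate 2. Ndn (chromosome 7, 62346569 to 62350262), the growth suppressor necdin, had 506 TPM in replicate 1 and 728 TPM in replicate 2. Both were higher in replicate 2, by less than 2-fold. Peg3 (chromosome 7, 6703892 to 6730431), a zinc finger protein linked to growth and maternal behaviour, had 78.95 TPM in replicate 1 and 140 TPM in replicate 2.

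Both maternally expressed coding genes are growth inhibitors and stood in the lowest tier. Cdkn1c (chromosome 7, 143458339 to 143461050), the cyclin-dependent kinase inhibitor p57, had 206 TPM in replicate 1 and 233 TPM in replicate 2. Grb10 (chromosome 11, 11930508 to 12038683), an adaptor that dampens signalling from the insulin and IGF1 receptors, had 298 TPM in replicate 1 and 134 TPM in replicate 2. The replicates were close for Cdkn1c and more than 2-fold apart for Grb10.

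Between libraries, 2 of 10 members were over 2-fold apart after the median gene was set to 0, against 47% of all genes detected in both. Among genes with a mean of at least 100 TPM, a limit chosen after levels were seen, the share was 32.9%, and all members lie above that limit. Meg3 was 2.22-fold and Grb10 2.21-fold higher in replicate 1 in TPM. The members closest between libraries were H19 at 1.09-fold, Cdkn1c at 1.13-fold, Dlk1 at 1.14-fold and Mest at 1.15-fold. The centred log2 ratios of the 10 members had an SD of 0.70 and a median of −0.20, against an SD of 1.26 over the 1178 genes with at least 100 TPM and of 0.72 over 23 spike-ins with a mean of at least 1000 counts.

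Members were higher in replicate 1 in 4 of 10 cases, of which 2 were paternally and 2 maternally expressed. This split was 5 of 10 when TMM or DESeq2 factors scaled the expected counts and 2 of 10 when the median spike-in was set to 0, since spike-ins took more of replicate 1. With the spike-in centre 6 members were over 2-fold apart, as were 57.3% of all detected genes, all 6 higher in replicate 2, and Meg3 and Grb10 were not among them, at a log2 ratio of 0.17 and 0.16. The Grb10 gap depended on length: its counts were 35515 in replicate 1 and 8041 in replicate 2, and with TMM factors the log2 ratio was 2.50, against 1.10 by TPM. Rian passed 2-fold by counts, at a log2 ratio of −1.06 with TMM factors.

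**Figure D3:**
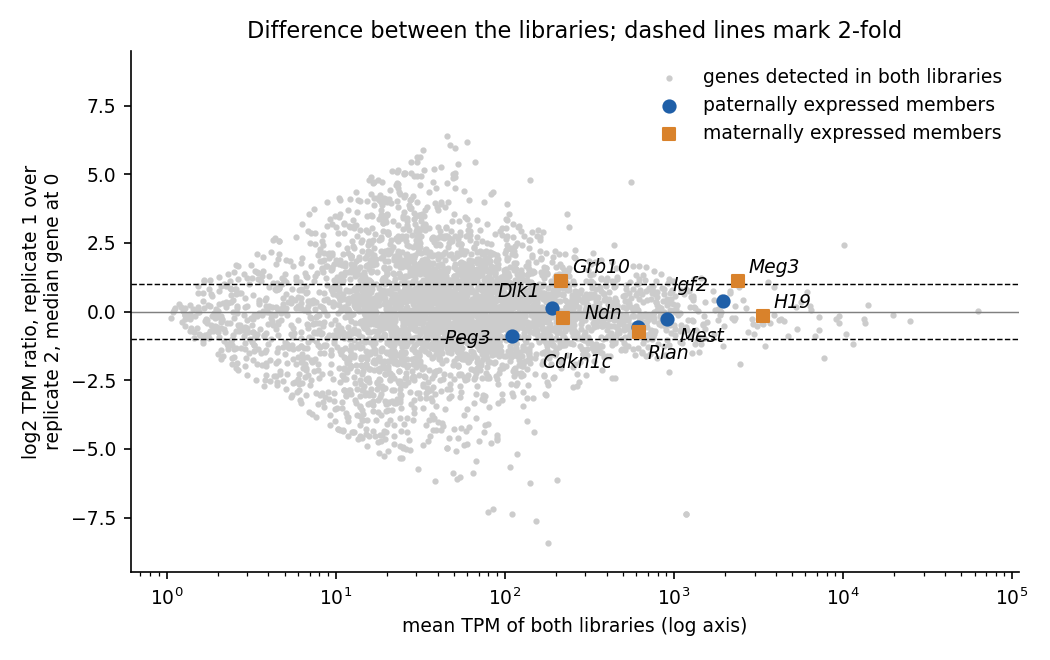
Centred log2 TPM ratio of replicate 1 over replicate 2 against mean TPM on a log axis for 4356 genes detected in both libraries in grey, with paternally expressed members as circles and maternally expressed members as squares. Only Meg3 and Grb10 among the members lie outside the dashed 2-fold lines, while 47% of all genes do.

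Genes of other functions had levels close to those of the members in both libraries. Closest to Igf2 on the log2(TPM + 1) scale were Actb, cytoplasmic beta-actin, at 2289 and 1534 TPM in replicates 1 and 2, and Oaz1, the ornithine decarboxylase antizyme, at 1915 and 1725 TPM. Closest to H19 were the fast calcium pump gene Atp2a1 at 2916 and 3749 TPM and the muscle phosphoglycerate mutase Pgam2 at 2902 and 3840 TPM. Closest to Meg3 were the ribosomal protein genes Rpl41 at 3224 and 1664 TPM and Rps19 at 2727 and 1552 TPM. Closest to Dlk1 were Sdf4 at 203 and 173 TPM and the calcium-binding S100a16 at 206 and 176 TPM. The likeness is a Euclidean distance over only 2 libraries among 4324 genes.

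Reads of the members were assigned to 82 annotated transcripts, of which 45 were above 0 TPM in both libraries, 9 in replicate 1 only, 11 in replicate 2 only and 17 in neither. Among the 9 members with more than 1 transcript, 5 had the same leading transcript by TPM in both libraries, against 65.6% of all genes detected in both with at least 2 transcripts. By expected counts it was 8 of 9 members, against 70.3% of those genes. The transcript with the highest mean share held a median over members of 79.9% of the gene's TPM in replicate 1 and 52.5% in replicate 2. Assignments among transcripts that share exons are estimates and less certain than gene totals.

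Mest, Peg3 and Ndn were read almost wholly as 1 transcript. Mest-211, which starts after the Mest window shown, held 95.8% of Mest TPM in replicate 1 and 99.5% in replicate 2, and its intron holds Mir335. Peg3-201 held 89.8% of Peg3 TPM in replicate 1 and 99.9% in replicate 2. Ndn has 1 annotated transcript. Dlk1-205 led Dlk1 in both libraries with 58.5% in replicate 1 and 67.2% in replicate 2.

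Igf2 was divided over transcripts with different starts, and a short form of its last exon held the largest mean share. Igf2-208, a 958-base transcript annotated as noncoding, of which 81.6% lies in the last exon of the coding Igf2-202, held 70.1% of Igf2 TPM in replicate 1 and 40.7% in replicate 2. Igf2-201 and Igf2-202, which start after the downstream Igf2 window shown, held 20.3% in replicate 1 and 9.98% in replicate 2, or 36.2% and 25.9% of its expected counts. Igf2-203, a 650-base model that starts after the upstream window, of which 93.7% of bases also lie in Igf2-202, held 2.81% in replicate 1 and 44.3% in replicate 2. Igf2-204 held 5.60% in replicate 1 and 0.0048% in replicate 2.

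The 2 H19 transcripts that carry the Mir675 hairpin in an exon, H19-202 and H19-205, held 86.0% of H19 TPM in replicate 1 and 63.7% in replicate 2. H19-203, an 817-base transcript that starts downstream of the hairpin, held 14.0% in replicate 1 and 36.3% in replicate 2. By expected counts the hairpin-holding transcripts took 94.3% in replicate 1 and 82.3% in replicate 2. The hairpin-holding transcripts thus took most of H19 in both libraries by either measure. Their share is an estimate, since 89.5% of the bases of H19-203 also lie in H19-205. The hairpin was placed on GENCODE M21 exons, where H19-205 has 1521 bases against 1853 in the deposited annotation.

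Meg3 and Rian, which have 11 and 19 transcripts, had different leading forms by TPM in the 2 libraries. Meg3-205, which starts after the Meg3 window shown, held 52.9% of Meg3 TPM in replicate 1 and 14.2% in replicate 2, and Meg3-203, of 457 bases, held 0% and 30.2%. Meg3-211 was closer, with 28.3% in replicate 1 and 32.6% in replicate 2. The 14548-base Meg3-209, which holds the Mir770 hairpin in an exon, took 2.06% and 1.82% of TPM but 20.6% and 23.9% of expected counts. Rian-213 held 16.8% of Rian TPM in replicate 1 and 50.3% in replicate 2, while Rian-202 held 32.2% and 33.4%. By expected counts Rian-202 led in both libraries, with 58.1% in replicate 1 and 46.6% in replicate 2.

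Grb10 and Cdkn1c also differed. Grb10-201, the 5061-base transcript that starts after the CpG-dense window shown, held 96.5% of Grb10 TPM in replicate 1 and 33.2% in replicate 2, yet 97.9% and 86.1% of its expected counts. The 430-base Grb10-207 held 1.05% in replicate 1 and 53.6% in replicate 2, from 25.2 and 745 expected counts. Grb10-203, from a start downstream of the main one, held 2.07% in replicate 1 and 0 in replicate 2. Cdkn1c-201 held all of Cdkn1c TPM in replicate 1 and 54.7% in replicate 2, where Cdkn1c-202, which begins close by (143460996 against 143461050), held 45.3%.

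**Figure D4:**
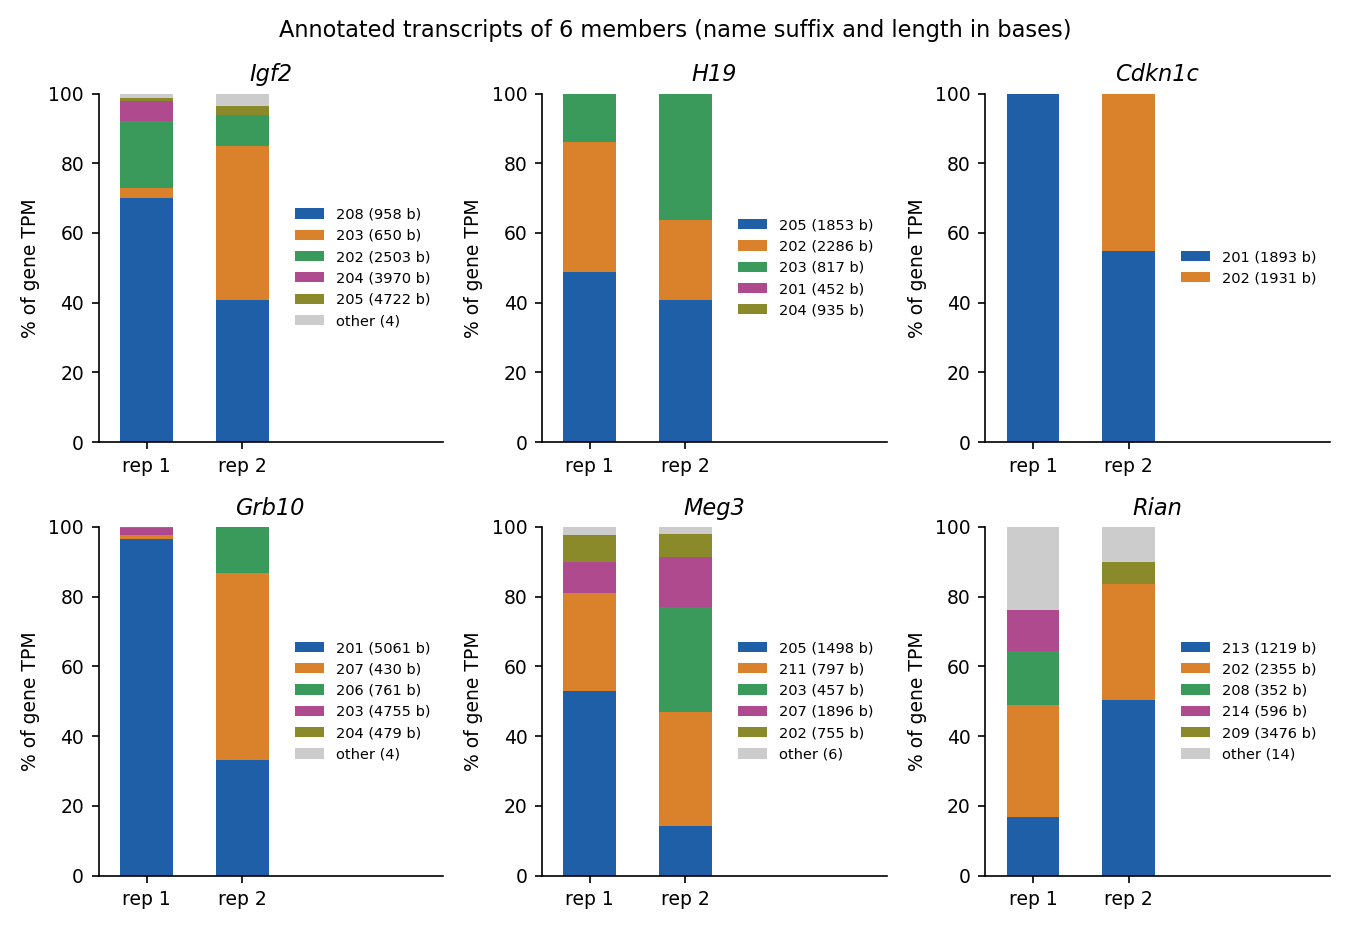
Percent of gene TPM assigned to the 5 leading annotated transcripts of 6 members, with the rest in grey, as stacked bars for replicate 1 and replicate 2. H19-205 and Cdkn1c-201 lead in both libraries, while Igf2-203, Grb10-207, Meg3-203 and Rian-213 are larger in replicate 2.

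Most listed neighbours in the 7 domains were not detected in both libraries. Of 34 neighbours with a row, 9 were detected in both libraries, against 10% of all genes. A further 2 were detected in replicate 1 only, 5 in replicate 2 only and 18 in neither. The list was written with earlier results of these data known, and it includes microRNA hairpins. Its share beside that of all genes is therefore no test. Around Igf2 and H19, Ins2, the second insulin gene, the noncoding Nctc1 and the hairpins Mir483 and Mir675 held 0 counts in both. Igf2os, which overlaps Igf2 by 7124 bases on the other strand, had 1 count in replicate 1 and 1112 in replicate 2, and reads of the strands may not be told apart because strand handling is not given in the sources used here.

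In the Cdkn1c domain, the maternally expressed Phlda2, Ascl2, Slc22a18 and Kcnq1, and Tssc4, held 0 counts in both libraries. Kcnq1ot1, the long paternally expressed RNA that silences this domain, had 0.270 TPM in replicate 1 and 1.15 TPM in replicate 2, from 555 and 3020 counts. Cd81, a membrane protein at the domain's edge, was the highest neighbour at 1041 and 329 TPM, above Cdkn1c in each library. Nap1l4, a nucleosome assembly protein, had 136 TPM in replicate 1 and 54.2 TPM in replicate 2, below Cdkn1c.

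In the Dlk1 and Meg3 domain the listed neighbours detected in both libraries were Rtl1 and Mirg. Rtl1, a paternally expressed retrotransposon-derived gene, had 21.1 TPM in replicate 1 and 11.5 TPM in replicate 2. Mirg, a microRNA host downstream of Rian, had 77.8 TPM in replicate 1 and 14.6 TPM in replicate 2. Dio3, the deiodinase that inactivates thyroid hormone, and Begain, upstream of Dlk1, held 0 counts in both. RefSeq places 58 hairpins from Dlk1 to Dio3, and the 51 with a row all held 0 counts.

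Neighbours of Mest, Peg3 and Grb10 were found less evenly. Copg2, which overlaps the end of Mest by 912 bases on the other strand, had 0.780 TPM in replicate 1 and 43.8 TPM in replicate 2, and Klf14 held 0 counts in both. Zim1, a maternally expressed zinc finger gene beside Peg3, had 17.7 TPM in replicate 1 and 34.5 TPM in replicate 2, while Usp29 had 1 count in replicate 1 and 0 in replicate 2. Ddc, the dopa decarboxylase beside Grb10, had 103 TPM in replicate 1 and 113 TPM in replicate 2. Cobl, an actin nucleator gene of the same region, had 1.60 TPM in replicate 1 and 306 TPM in replicate 2, above Grb10 there.

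Ndn stood far above its neighbours. Magel2, a MAGE family gene like Ndn, and Mkrn3 and Atp10a held 0 counts in both libraries. Peg12 was read in replicate 1 alone, at 25.4 TPM, and Snrpn, a splicing protein gene, had 0.420 TPM in replicate 1 and 48.5 TPM in replicate 2. Snhg14, the long host RNA of small nucleolar RNAs, had 17.2 and 12.8 TPM, and the ubiquitin ligase gene Ube3a had 37.7 and 11.9 TPM.

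**Figure D5:**
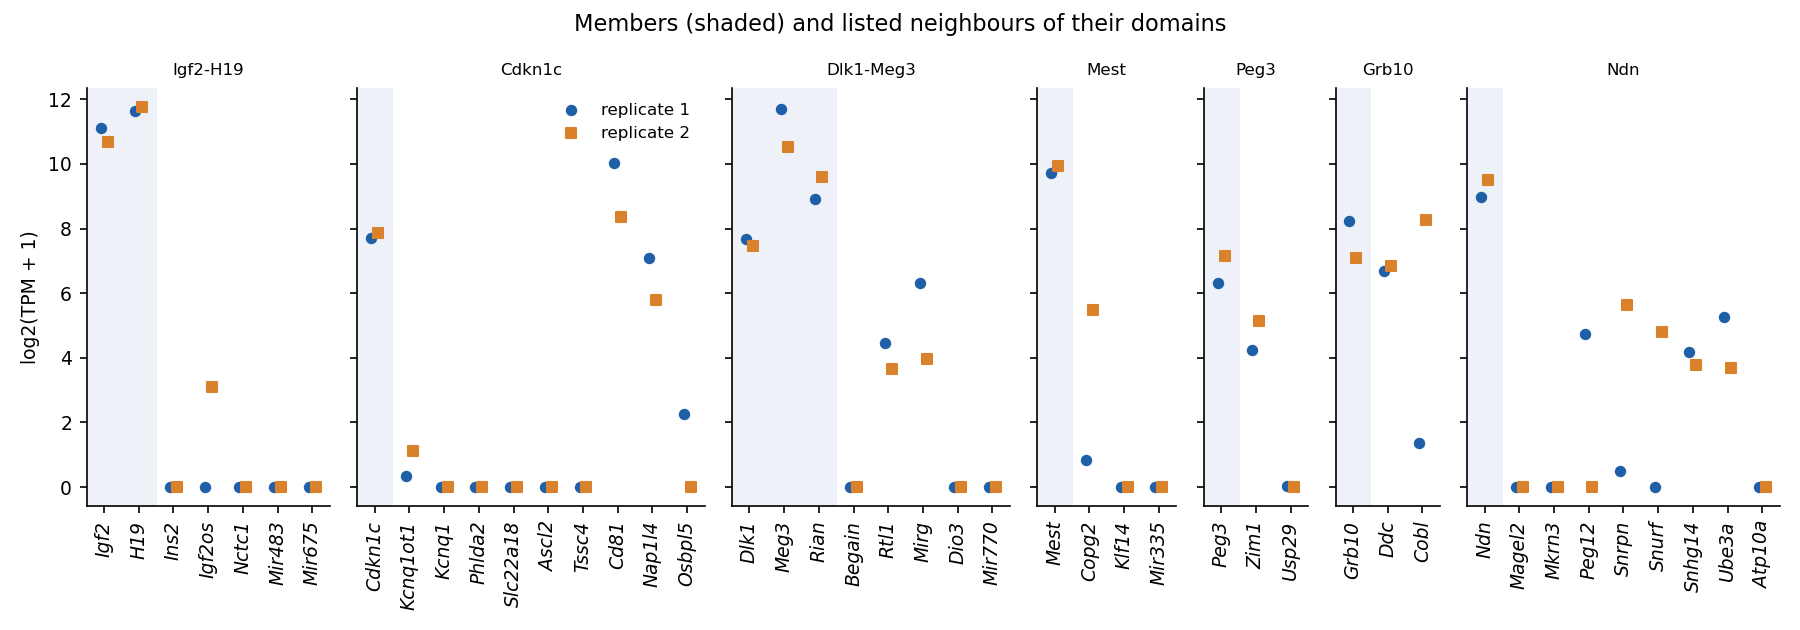
Log2(TPM + 1) of the members, shaded, and of 34 listed neighbours in 7 domains, with circles for replicate 1 and squares for replicate 2. Apart from Cd81, and from Cobl in replicate 2, neighbours lie below every member of their own domain in each library.

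Related genes outside the imprinted domains separated from some members. Igf2 was 19.8-fold higher than Igf1, the growth factor that takes over after birth, in replicate 1 and 54.7-fold higher in replicate 2, where Igf1 had 113 TPM in replicate 1 and 30.2 TPM in replicate 2. The log2 ratio was 5.01 ± 1.01. By expected counts, with no length adjustment, Igf2 had 75100 and 50565 and Igf1 had 11298 and 6556 in replicates 1 and 2. Igf2 was higher by either measure, but the size of the fold and its difference between libraries depend on the length adjustment. Cdkn1c was 21.3-fold higher than its relative Cdkn1b (p27) in replicate 1 and 65.9-fold in replicate 2, a log2 ratio of 4.98 ± 1.00. Both log2 ratios of TPM exceeded the spread. Cdkn1a (p21), at 194 TPM in replicate 1 and 342 TPM in replicate 2, did not separate from Cdkn1c, with a log2 ratio of −0.23 ± 0.45.

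Several relatives were not read at all. Grb7 and Grb14, adaptors of the same family as Grb10, held 0 counts in both libraries. Magel2, the MAGE gene beside Ndn, did too. Dlk2, the relative of Dlk1, had 0 counts in replicate 1 but 1720 in replicate 2, or 41.0 TPM. No fold is given for these pairs, since a gene at 0 counts in 1 library could reach such a level in the other.

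Other imprinted genes outside these domains gave 9 detected in both of 17 with a row, against 10% of all genes. The median of these 9 was 82.2 TPM. Dcn, the matrix protein decorin, had 660 TPM in replicate 1 and 680 TPM in replicate 2, and Gnas, the stimulatory G protein subunit, had 434 and 426 TPM. Slc38a4, an amino acid transporter, had 142 and 123 TPM. Plagl1, a transcription factor of the fetal growth network, had 45.4 TPM in replicate 1 and 119 TPM in replicate 2. Igf2r, the maternally expressed receptor that clears IGF2, had 24.1 and 24.9 TPM, and Airn, its paternally expressed antisense RNA, had 39.9 and 40.5 TPM. By expected counts the order was the reverse, with 5169 and 6825 for Igf2r and 986 and 1284 for Airn. The genes overlap on opposite strands, and their reads may not be told apart because strand handling is not given.

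Of 16 listed genes of the IGF pathway, 10 were detected in both libraries, against 10% of all genes. Another 2 were detected in replicate 1 only, 3 in replicate 2 only and 1 in neither. The ligand Igf2 exceeded all of them in each library. The receptor gene Igf1r had 21.7 TPM in replicate 1 and 0.70 TPM in replicate 2, and the insulin receptor gene Insr 13.6 and 49.2 TPM. Among binding proteins, Igfbp4 had 86.1 TPM in replicate 1 and 80.4 TPM in replicate 2, and Igfbp5 had 52.0 and 28.2 TPM. Igf2bp3, an RNA-binding protein that binds Igf2 message, had 53.3 TPM in replicate 1 and 6.77 TPM in replicate 2. Igf2 itself differed 1.35-fold between the libraries by TPM, a centred log2 ratio of 0.38. With TMM factors on expected counts this ratio was 0.93, so the Igf2 gap also depended on length.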

How the data were processed

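RNA of newborn mouse skeletal muscle was analysed in 2 libraries of 1 group, numbered by the labels. The authors deposited expected counts per gene and transcript, which are estimates, unnormalized. The column names are RSEM's, posterior means included, per the file headers. The deposited TPM values are scaled by the authors over all rows, spike-ins included. The percent of a gene's abundance held by each transcript was also deposited by the authors. The build was mm10 and the annotation GENCODE M4, per the authors' deposited descriptions. Aligner and strand use were not given in the sources used here. Symbols, positions and transcript names came from GENCODE M21 on GRCm38, in which 81 of the 82 member transcripts were found, 72 with the same length. Promoter and microRNA sequences came from RefSeq on GRCm38.p6. Promoters of H19 and Cdkn1c are not shown.

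Members and lists were chosen with earlier results of these data known. Pair ratios used log2(TPM + 1). Ratios between libraries were of TPM, replicate 1 over replicate 2, centred on the median of the 4872 genes that reached 10 expected counts in each library, a shift of 0.05 log2. All members, the detected genes of fixed lists and the 2 genes nearest to each of Igf2, H19, Meg3 and Dlk1 could be named. The 2-fold call was tested on simulated counts that held counting error only. Those counts lacked the wider spread seen between these libraries, and the detection rule was not tested. Alternatives were posterior mean TPM, expected counts with no length adjustment, a pseudocount of 0.1, other filters and centres, TMM factors (edgeR 4.0.16), DESeq2 1.42.0 size factors on rounded expected counts, and leaving out each library. Python 3.11.15, pandas 2.3.3 and R 4.3.3 were used. No differential test was run, as there is 1 group.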

Additional observations from a re-analysis of the deposited data

How the results depend on the processing

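Apart from leaving out a library, 26 of 36 recomputed values were classed as the same and 10 as moved. For ratios and shares this meant a change below or above the spread, whereas counts of members have no spread. Where a direction was called, no mean changed sign. With 2 libraries, leaving out 1 moves a mean by less than 1 SD by construction, and Cdkn1c over Cdkn1a, for which no direction was called, then gave 0.09 or −0.55. From expected counts, with no length adjustment, the log2 ratio of the paternal to the maternal sum was −0.65 against −0.84, that of Igf2 to H19 was −1.28 against −0.81, and members took 1.37% against 1.06%. As a difference of medians the paternal to maternal value was −0.00036, from 0.08 in replicate 1 and −0.08 in replicate 2. The direction of the sums was thus not held by the medians. Members over 2-fold apart numbered 6 with the median spike-in as centre (57.3% of all detected genes) and 0 at a limit of 4-fold (19.4%), against 2 (47%). Where the partner is at or near 0 the log2 ratio followed the pseudocount and is not read as a fold. With 0.1 in place of 1 it was 10.97 against 7.65 for Grb10 over Grb7 or Grb14. For Peg3 over Usp29 it was 9.91 against 6.72, and for Ndn over Magel2 12.57 against 9.25. Leaving out a replicate gave the paternal to maternal ratio as −0.95 to −0.74, Igf2 over H19 as −1.08 to −0.53, Dlk1 over Meg3 as −4.02 to −3.06, Dlk1 over Rian as −2.12 to −1.24 and Rian over Meg3 as −2.78 to −0.94. No paired analysis was possible because there is 1 group. With n = 2 no spread can be tested and transcript shares rest on an estimate among shared exons.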

Other observations

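The maternally expressed noncoding RNAs H19, Meg3 and Rian together held 60.1 ± 1.95% of the members' TPM, with 61.5% in replicate 1 and 58.7% in replicate 2. Several genes of the fixed lists with many counts in 1 library were near 0 in the other. Among neighbours of the members, Snrpn had 19 expected counts in replicate 1 and 2779 in replicate 2, and Copg2 had 73.8 and 5149. In the other direction Peg12 had 1576 counts in replicate 1 and 0 in replicate 2. Of the other lists, the receptor gene Igf1r had 2320 and 96 counts, and Inpp5f, a phosphatase gene with an imprinted variant, had 0 and 2742 counts. No member had such a pair of values, and the largest ratio of their counts was that of Grb10, at 35515 in replicate 1 and 8041 in replicate 2.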
